A study of Mus musculus with 5 samples.

Results

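AMP-activated protein kinase (AMPK) is a trimer of a catalytic alpha, a scaffolding beta and a nucleotide-binding gamma subunit. It senses the energy state of the cell through AMP and ADP bound to the gamma subunit, and it is switched on when LKB1 phosphorylates the activation loop of the alpha subunit. In skeletal muscle AMPK is known for promoting glucose uptake, fatty acid oxidation and mitochondrial gene expression during contraction. The gamma-3 subunit is known as the form enriched in glycolytic fast-twitch fibers. The 8 genes described here are the alpha subunit genes Prkaa1 and Prkaa2, the beta subunit genes Prkab1 and Prkab2, the gamma subunit genes Prkag1, Prkag2 and Prkag3, and Stk11, which encodes LKB1. They were chosen by name, with earlier results of these data known, and each matched 1 of the 17015 genes in the deposited table.

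The RNA came from tibialis anterior (TA) muscle of male mice aged 8 weeks, with 3 libraries labelled WT control and 2 labelled skmNrip1-/-. In skmNrip1-/- mice a Cre recombinase driven by the myogenin promoter deletes Nrip1, the gene of the nuclear receptor coregulator RIP140, in skeletal muscle. The study crossed Nrip1 fl/fl mice (C57BL/6J) to Cre mice given as C57BL/6JN, and its controls are Cre-negative littermates. Whether each library stands for 1 mouse is not given in the labels, so p-values here measure the spread between these libraries. The comparison made here asks whether the subunit makeup of AMPK mRNA differs in a glycolytic fast-twitch muscle when RIP140 is deleted.

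The targeted gene goes against its label. Nrip1 was at 4.64, 7.69 and 6.55 FPKM in WT control, against 25.3 and 22.5 in the other group, with values here and below given in replicate order. FPKM stands for fragments counted per kilobase of a transcript and scaled for library size. Nrip1 was thus higher where it is labelled as deleted, by 1.94 on the log2 scale (adjusted p = 0.0261, limma). In the study's design the deleted exon holds both the start and the stop codon. The table gives a single value per gene, so the deleted exon cannot be viewed apart from the others, and every direction below rests on the labels. To check the mouse line, the study measured Nrip1 mRNA and RIP140 protein in gastrocnemius and heart. Why Nrip1 was higher here was not tested. Skeletal muscle markers (Acta1, Ckm, Ttn, Myh4 and Myh1) were abundant in all 5 libraries, with summed FPKM of 40226 to 50258 in WT control and 35246 to 36657 in the libraries labelled skmNrip1-/-. Levels of 4 other marker lists were low beside these, with summed FPKM across all libraries of 1.85 to 3.34 for fat, 1.56 to 2.96 for immune cells, 13.8 to 25.6 for nerve and 1.98 to 2.36 for satellite cells. Summed FPKM across all libraries was 57.4 to 71.1 for endothelium and 118 to 191 for fibroblasts, with overlapping groups in both. Blood markers were at 511 to 764 FPKM in WT control and 827 to 996 in the libraries labelled skmNrip1-/-. The part of these cells in the results below was not tested. In bulk RNA, fewer cells of a type and less RNA per cell cannot be told apart.

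The promoters of the 3 gamma subunit genes are shown by the motifs they hold, because the gamma family carries the largest difference among the 8 genes. RefSeq promoters (GRCm38.p6, 250 bases before to 50 after each annotated start) matched all 8 genes, with 3 promoters for Prkag2. They were searched on both strands for the E-box CANNTG, which myogenic factors bind, for the MEF2 motif, for the nuclear receptor half-site AGGTCA, and for TNAAGGTCA, the site of estrogen-related receptors, which contains the half-site. Each sequence below is read 5′ to 3′ on the gene's strand, with the motif in capitals.
Prkag3 E-box, chr1:74748978-74749007, minus strand: gcagtgcgggaaCAGCTGcgggttaagcgc
Prkag1 E-box, chr15:98831654-98831683, minus strand: acattttaaataCAAGTGcctctgtcccat
Prkag2 estrogen-related receptor site (reverse complement), chr5:24995777-24995806, minus strand: agtgagccagTGACCTTAActacataaaca
The Prkag3 E-box begins 40 bases before its RefSeq start and lies within an exon of a longer GENCODE transcript of the gene. An E-box is a common match, present in 72.3% of the 32851 promoters of the same length. E-boxes also stand in the Prkag2 promoters (7 in all) and in that of Stk11 (2). The estrogen-related receptor site, in the Prkag2 promoter at chr5:24995704-24996003, is present in 1.28% of all promoters, and the half-site alone in 16.3%. None of the promoters of the 8 genes holds a MEF2 match, which 3.19% of all promoters do. A match describes letters in the window and is not evidence of binding.

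Prkag3 was the only member whose libraries labelled skmNrip1-/- averaged under 0.5 times the WT control level (a ratio of 0.484), and the other 7 members stayed within 0.40 of 0 on the log2 scale. A gene counted as called when its adjusted p was at most 0.05 and its fold change at least 1.2, and 0 of the 8 members were. Few genes were called at all, 45 higher (0.37% of the 12148 tested) and 10 lower (0.0823%), or 0.453% in either direction. At an unadjusted p of 0.05 or less, 1 of the 8 members was lower and 0 were higher, against 5.33% and 6.57% of all genes. After rescaling to TPM, which moved the median of all genes down, 5 of the 8 members were lower at that p, against 29.1% of all genes. Libraries of the groups did not overlap for 2 members that were lower and 1 that was higher, against 14.4% and 15.8% of all genes (30.2% in either direction). The median log2 fold change of the 8 members was -0.14, and that of all tested genes was -0.00054.

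**Figure D1:**
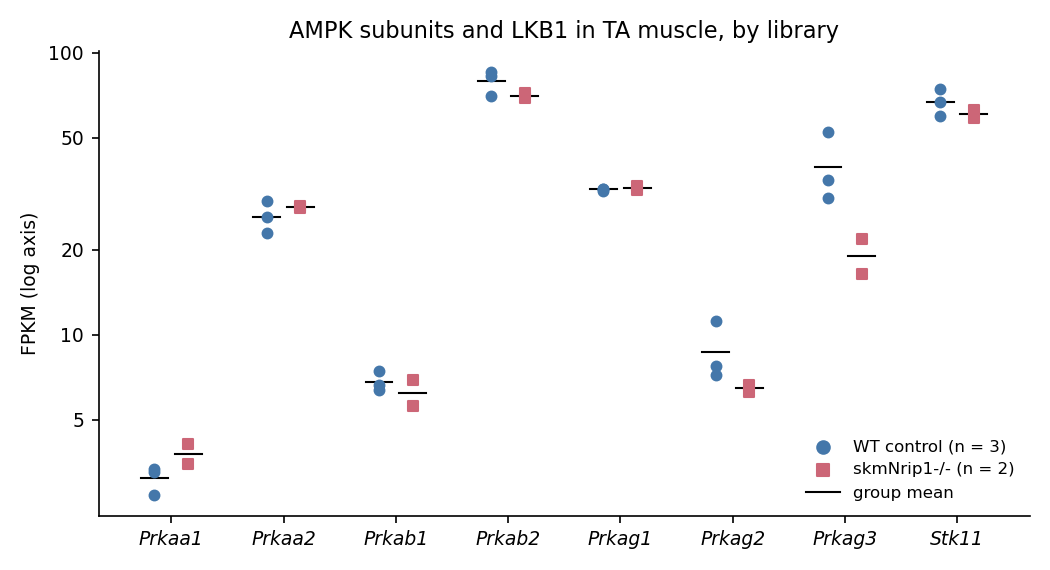
FPKM (log axis) of the 8 genes in each library, with circles for the 3 WT control libraries, squares for the 2 libraries labelled skmNrip1-/- and a line at each group mean. Prkag3 sits at 30.6 to 52.4 in WT control and at 16.4 and 21.8 in the libraries labelled skmNrip1-/-, while Prkag1 lies between 32.4 and 33.6 throughout.

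Prkag3 (ENSMUSG00000006542) lies on the minus strand of chromosome 1, from 74738922 to 74749221 on GRCm38. GENCODE M21 lists 6 transcripts for it, and no other annotated gene overlaps it. Its FPKM was 52.4, 30.6 and 35.5 in WT control, against 16.4 and 21.8 in the other group. Both libraries labelled skmNrip1-/- were below every WT control library, and WT control replicate 1 was the highest. The means were 39.5 ± 11.4 FPKM (SD, n = 3) and 19.1 ± 3.81 FPKM (SD, n = 2). The log2 fold change on the log2(FPKM + 0.1) scale was -1.02 (standard error 0.24, 95% interval -1.60 to -0.44 from limma). The gene ranked 288th of 12148 by p (unadjusted p = 0.00468 from limma), and its adjusted p of 0.197 missed the threshold. A lower log2 fold change was seen in 0.922% of the tested genes. Without WT control replicate 1 the value was -0.80 (adjusted p = 0.201, limma). When each library was rescaled to the same sum (TPM), the log2 fold change was -1.32 and the gene was called (adjusted p = 0.0485 from limma). That scaling moved the median of all genes to -0.29, and the Prkag3 value relative to that median was -1.03.

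Prkag1 encodes gamma-1, the broadly expressed gamma subunit. It lies on the minus strand of chromosome 15, from 98812797 to 98831521. Its FPKM was 33.0, 32.9 and 32.4 in WT control and 33.6 and 32.6 in the libraries labelled skmNrip1-/-. All 5 libraries overlapped within a narrow range, and only 0.56% of tested genes had a smaller coefficient of variation in WT control, which was 0.966% for Prkag1. The log2 fold change was 0.014, with a 95% interval of -0.21 to 0.24 from limma. The same coefficient was 28.9% for Prkag3 and 24.8% for Prkag2, above 89.0% and 84.6% of the tested genes. Prkag3 was thus the most variable of the 8 genes within WT control as well.

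Prkag2 encodes gamma-2, a form best known from heart. Its FPKM was 7.77, 11.2 and 7.19 in WT control, against 6.30 and 6.66 in the other group. Both libraries labelled skmNrip1-/- were below the WT control libraries, but by less than the spread among these. Its log2 fold change of -0.40 had a standard error of 0.20 and was not called (adjusted p = 0.506, limma). Without WT control replicate 2 it was -0.20. GENCODE lists 10 transcripts of Prkag2 on the minus strand of chromosome 5, from 24862744 to 25100642, with coding lengths up to 1698 nucleotides, and the table does not separate its long and short forms.

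The makeup of the gamma family was compared as each gene's share of the summed FPKM within a library, a measure that scaling between libraries does not move. The share of Prkag3 was 56.2%, 40.9% and 47.3% in WT control, against 29.1% and 35.7% in the other group. The groups did not overlap, and the means were 48.1% ± 7.68 (SD, n = 3) and 32.4% ± 4.64 (SD, n = 2). The share of Prkag1 was 40.9% ± 4.75 (SD, n = 3) in WT control against 56.5% ± 4.45 (SD, n = 2). Shares in a library add up to the whole, so this is largely the complement of the Prkag3 difference and not a separate result. The share of Prkag2 was 8.34% to 14.99% in WT control against 11.2% and 10.9%, with overlap. For the Prkag3 share, the two-sided exact permutation p was 0.2, the smallest that 10 splits of 2 against 3 libraries allow, and 0.6 after adjustment over the 3 subunit shares tested. The ratio of Prkag3 to Prkag1 FPKM rests on the same values. It was 1.59, 0.929 and 1.095 in WT control and 0.488 and 0.668 in the libraries labelled skmNrip1-/-. Prkag3 was thus above Prkag1 in 2 of the 3 WT control libraries and below it in both libraries labelled skmNrip1-/-. Summed over the family, gamma FPKM was 74.7 to 93.1 in WT control and 56.3 and 61.1 in the libraries labelled skmNrip1-/-. The sum without Prkag3 was 39.6 to 44.1 and 39.3 to 39.9, so that the groups overlapped.

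**Figure D2:**
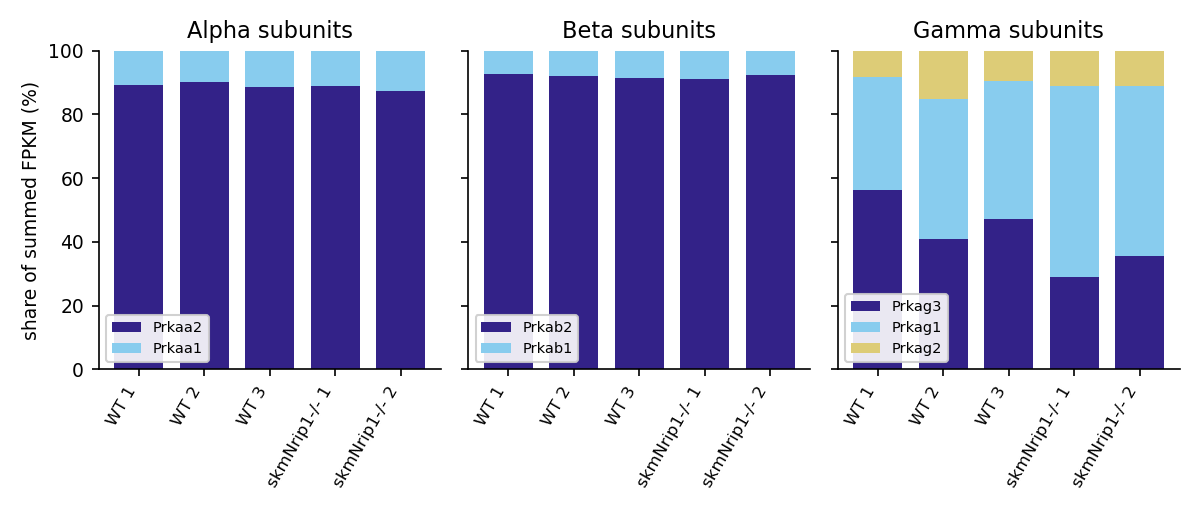
Share of each gene in the summed FPKM of its subunit family (%), as stacked bars for the 5 libraries. Prkag3 takes 40.9% to 56.2% of gamma FPKM in WT control and 29.1% and 35.7% in the libraries labelled skmNrip1-/-, while Prkaa2 and Prkab2 hold 87.5% to 90.1% and 91.2% to 92.8% of their families in all 5.

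Prkaa2 encodes alpha-2, the main catalytic subunit of muscle. It lies on the minus strand of chromosome 4, from 105029874 to 105109890, with a single annotated transcript. Its FPKM was 23.0, 29.8 and 26.1 in WT control and 28.2 and 28.5 in the libraries labelled skmNrip1-/-. The groups overlapped, and the log2 fold change was 0.12 (95% interval -0.20 to 0.43 from limma), or 0.026 without WT control replicate 1. Prkaa1, which encodes alpha-1, lies on the plus strand of chromosome 15, from 5143861 to 5181899, and was the lowest of the 8 genes. Its FPKM was 2.72, 3.27 and 3.35 in WT control and 3.50 and 4.09 in the libraries labelled skmNrip1-/-. Both libraries labelled skmNrip1-/- were above the WT control libraries by a small margin, and the log2 fold change of 0.28, which was -0.0097 after rescaling to TPM, was not called (standard error 0.15, adjusted p = 0.545 from limma). The share of Prkaa2 in alpha FPKM was 89.4% ± 0.733 (SD, n = 3) in WT control against 88.2% ± 1.06 (SD, n = 2). That difference of -1.18 percentage points had an exact permutation p of 0.4 (two-sided).

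Prkab2, the gene of the beta-2 scaffold, was the most abundant member. It lies on the plus strand of chromosome 3, from 97658193 to 97673812. Its FPKM was 82.7, 85.5 and 70.5 in WT control and 71.8 and 69.0 in the libraries labelled skmNrip1-/-. WT control replicate 3 lay within the range of the other group, and the log2 fold change was -0.17 (95% interval -0.46 to 0.11 from limma). Prkab1, the gene of beta-1, lies on the minus strand of chromosome 5, from 116013586 to 116024508. Its FPKM was 6.39, 7.44 and 6.65 in WT control and 6.90 and 5.61 in the libraries labelled skmNrip1-/-. The groups overlapped, with a log2 fold change of -0.13 (95% interval -0.46 to 0.20 from limma). Prkab2 held 92.1% ± 0.728 (SD, n = 3) of beta FPKM in WT control against 91.9% ± 0.888 (SD, n = 2), with an exact permutation p of 0.8 (two-sided).

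Stk11, the gene of the upstream kinase LKB1, lies on the plus strand of chromosome 10, from 80115803 to 80130682. Its FPKM was 74.5, 59.8 and 66.9 in WT control and 62.5 and 58.6 in the libraries labelled skmNrip1-/-. The groups overlapped, and the log2 fold change was -0.14 (95% interval -0.44 to 0.15 from limma), or -0.064 without WT control replicate 1. Exons of Cbarp overlap Stk11 on the opposite strand, and whether the quantification used strand is not stated. Cbarp was at 0.306 to 0.998 FPKM, far under the 58.6 to 74.5 FPKM of Stk11. Annotated antisense or opposite-strand exons also overlap Prkab2, Prkag1 and Prkag2, in genes not analysed here.

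**Figure D3:**
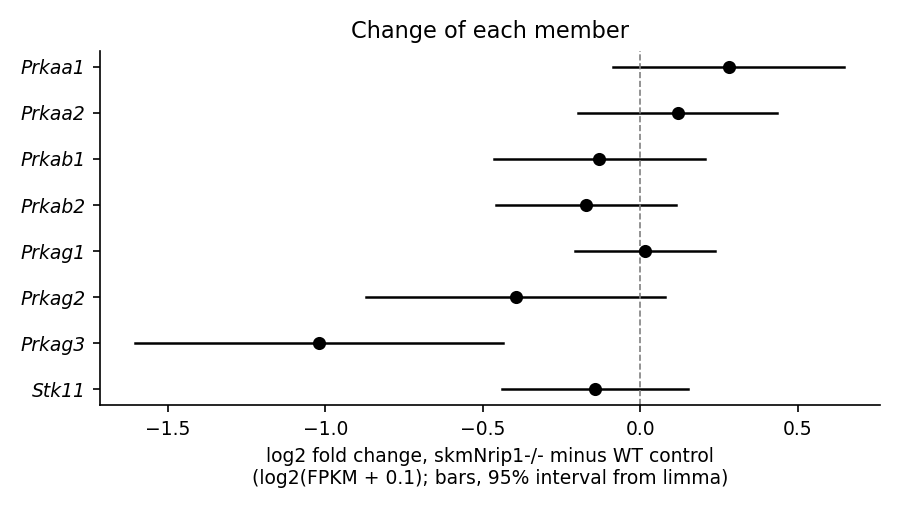
Log2 fold change of each gene (points, skmNrip1-/- minus WT control on log2(FPKM + 0.1)) with its 95% interval from limma (bars). The interval of Prkag3, -1.60 to -0.44, is the only one that does not cross 0.

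In WT control the mean FPKM ran in the order Prkab2 (79.6), Stk11 (67.1), Prkag3 (39.5), Prkag1 (32.8), Prkaa2 (26.3), Prkag2 (8.72), Prkab1 (6.83) and Prkaa1 (3.11). Among neighbors in this order, the WT control libraries overlapped between Prkab2 and Stk11, between Prkag3 and Prkag1, and between Prkag2 and Prkab1. In the libraries labelled skmNrip1-/- the same order held but for Prkag3, whose mean of 19.1 FPKM lay under those of Prkag1 (33.1) and Prkaa2 (28.4), without overlap. FPKM counts fragments per length of transcript, so these levels can be compared between genes, but they describe mRNA and not the trimers formed.

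Prkag3 was set beside the markers of glycolytic fast fibers, the fibers in which it is enriched. The 7 markers were Myh4, Actn3, Pvalb, Tnni2, Tnnt3, Mylpf and Atp2a1. All 7 had a log2 fold change below 0, against 50.1% of all tested genes, with a median of -0.21. None was called, against 0.453% of all tested genes. The groups did not overlap for 3 that were lower and 0 that were higher, against 14.4% and 15.8% of all tested genes. Actn3, the fast-fiber alpha-actinin, was at 3558, 2712 and 2701 FPKM in WT control and 1739 and 1744 in the libraries labelled skmNrip1-/-. Actn3 thus had a log2 fold change of -0.77, with an unadjusted p of 0.00305 and an adjusted p of 0.169 from limma. Myh4, the fast glycolytic myosin heavy chain, was at 8478, 7851 and 6839 FPKM in WT control and 6416 and 6910 in the libraries labelled skmNrip1-/-, with overlap. All 7 markers, like Prkag3, were highest in WT control replicate 1. Without that library, 5 of the 7 were below 0 and their median was -0.14.

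**Figure D4:**
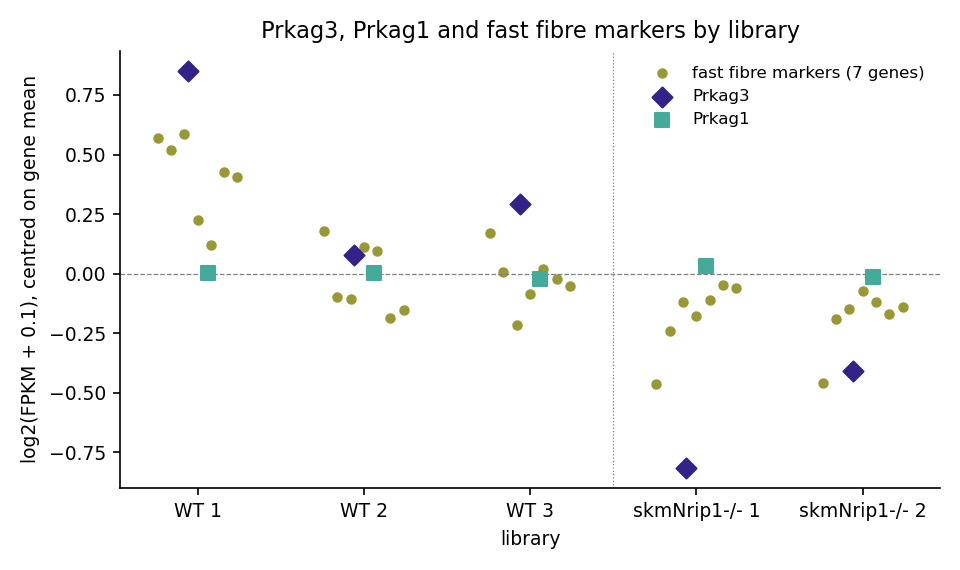
Log2(FPKM + 0.1) in each library, centred on each gene's own mean, for Prkag3 (diamonds), Prkag1 (squares) and 7 glycolytic fast fiber markers (dots). Prkag3 and the markers are highest in WT control replicate 1, Prkag3 has its lowest values in both libraries labelled skmNrip1-/-, and Prkag1 stays near 0.

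The difference of Prkag3 was larger than that of the mean of these markers. Relative to their mean log2(FPKM + 0.1) in the same library, Prkag3 was at -7.64, -7.99 and -7.77 in WT control. In the libraries labelled skmNrip1-/- it was at -8.73 and -8.31. The groups did not overlap, and the difference of -0.72 had an exact permutation p of 0.2 (two-sided), again the smallest possible. This comparison was chosen after the values were seen. It does not hold for each marker alone, as Actn3 was nearer to Prkag3, with log2 fold changes of -0.77 and -1.02. Without WT control replicate 1 these were -0.64 for Actn3 and -0.80 for Prkag3. Whether Prkag3 differs from Actn3 was not tested. Myosin heavy chains of other fast fibers did not separate the groups, with log2 fold changes of 0.049 for Myh1 and -0.18 for Myh2. Myh2 was at 223, 333 and 1102 FPKM in WT control and 363 and 406 in the libraries labelled skmNrip1-/-. Its overlap thus rests on WT control replicate 3, and both libraries labelled skmNrip1-/- lay above WT control replicates 1 and 2. Slow-fiber markers had a median of 0.0027 over 7 genes, from -1.24 for Myl3 to 3.46 for Myl2, and none was called. Myl2, the slow regulatory light chain, was at 2.03, 1.85 and 9.68 FPKM in WT control and 42.1 and 33.6 in the libraries labelled skmNrip1-/-, and Myh7, the slow myosin heavy chain, was at 0.648 to 0.751 and at 1.72 and 0.449. Whether the fiber makeup of the samples plays a part in the Prkag3 value was not tested.

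The genes with the profile most like that of Prkag3, by root mean square distance over the 5 libraries, were Syt3 (0.0937), Acsl3 (0.109), Gm49181 (0.136), Gm14760 (0.139) and A230050P20Rik (0.146). Syt3 encodes a synaptotagmin and Acsl3 a long-chain acyl-CoA synthetase. Acsl3 was at 5.45, 3.85 and 4.17 FPKM in WT control and 2.06 and 2.60 in the libraries labelled skmNrip1-/-, a log2 fold change of -0.91. None of the 5 genes was called. The likeness rests on 5 libraries that share their depth and scaling, and it describes these values only.

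Around AMPK, 63 genes in 7 lists were followed, of which 58 passed the FPKM minimum. None was called, against 0.453% of all tested genes. At an unadjusted p of 0.05 or less 3 were higher and 2 lower, against 6.57% and 5.33% of all genes. Groups did not overlap for 12 that were higher and 11 that were lower, against 15.8% and 14.4% of all genes. Their median log2 fold change was -0.019. With 1 library left out, the medians took both signs for the partners of LKB1 (-0.091 to 0.023), for other kinases and phosphatases (-0.038 to 0.10) and for substrates in growth and transcription (-0.12 to 0.011).

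Among the partners of LKB1, 1 of 4 genes had an unadjusted p of 0.05 or less, and the list median was -0.069. It was Stradb, which encodes a pseudokinase that binds LKB1, at 40.4, 40.2 and 37.4 FPKM in WT control and 47.1 and 47.3 in the libraries labelled skmNrip1-/-. Stradb had a log2 fold change of 0.26 (unadjusted p = 0.0318, adjusted p = 0.360 from limma), which turned to -0.036 after rescaling to TPM. The lowest was Strada, the other pseudokinase partner, at -0.15. Cab39 and Cab39l, which encode the scaffold MO25, were at -0.070 and -0.068. For other kinases and phosphatases of the alpha subunit, 0 of 4 tested genes had an unadjusted p of 0.05 or less, with a median of 0.031, from -0.25 for Camkk2, a calcium-dependent AMPK kinase, to 0.15 for Ppm1a. The 9 tested AMPK-related kinases that LKB1 also activates had a median of -0.022, from -0.16 for Mark2 to 0.32 for Mark1, and 0 had an unadjusted p of 0.05 or less.

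Among substrates of AMPK in fuel metabolism, 8 of 9 had a log2 fold change above 0 and the median was 0.17. With 1 of 9 below 0, the list stands beside 50.1% of all tested genes. In 5 of the 9 the libraries labelled skmNrip1-/- were all above WT control, against 15.8% of all tested genes. Without WT control replicate 1 the list median was 0.067. Tbc1d4, which encodes AS160, a regulator of GLUT4 traffic, was at 2.30, 5.10 and 3.18 FPKM in WT control and 9.52 and 9.07 in the libraries labelled skmNrip1-/-. The groups lay well apart, and the log2 fold change was 1.45 (standard error 0.30, unadjusted p = 0.00238, adjusted p = 0.152 from limma). Without WT control replicate 2, the WT control library nearest to the other group, it was 1.74 and the gene was called (adjusted p = 0.0453 from limma). Without WT control replicate 1 or 3 it was 1.18 or 1.41 and was not called (adjusted p = 0.195 and 0.467 from limma). Without replicate 1 or 2 labelled skmNrip1-/- the Tbc1d4 value was 1.41 or 1.48. Its relative Tbc1d1 was at 0.099, and Acacb, the acetyl-CoA carboxylase that controls malonyl-CoA at mitochondria, at 0.17. The lowest of the list was Pfkfb3, at -0.14. After rescaling to TPM the list median was -0.13, which is 0.17 higher than the all-gene median.

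Among 14 substrates in growth, autophagy, mitochondria and transcription, the median was -0.036, and 1 gene had an unadjusted p of 0.05 or less. This was Tfeb, which encodes a transcription factor of lysosomal genes, at 46.9, 41.3 and 48.0 FPKM in WT control and 34.6 and 30.7 in the libraries labelled skmNrip1-/-. Tfeb had a log2 fold change of -0.47, which had a standard error of 0.12 and missed the adjusted threshold (unadjusted p = 0.00544, adjusted p = 0.209, limma). The highest was Hdac4, a class IIa histone deacetylase, at 0.34. Ppargc1a, which encodes the coactivator PGC-1alpha, was at -0.035 with a 95% interval of -0.60 to 0.53.

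The list of lysosomal and sestrin regulators had 10 of 12 genes below 0 and a median of -0.19, against 50.1% of all tested genes below 0. None had an unadjusted p of 0.05 or less. The groups did not overlap for 5 of the 12 that were lower and 1 that was higher, against 14.4% and 15.8% of all tested genes. The range was from -0.30 for Sesn3, a sestrin, to 0.22 for Lamtor3, a subunit of the Ragulator complex. Without WT control replicate 1 the median was -0.12.

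Among 6 enzymes that make or remove AMP, the median was 0.071, with 1 gene higher and 1 lower at an unadjusted p of 0.05 or less. Ampd2, an AMP deaminase, was at 2.27, 2.02 and 2.33 FPKM in WT control and 1.03 and 1.67 in the libraries labelled skmNrip1-/-, a log2 fold change of -0.70 (unadjusted p = 0.0179, adjusted p = 0.302 from limma). Without replicate 1 labelled skmNrip1-/- the Ampd2 value was -0.38 (unadjusted p = 0.130), and without replicate 2 it was -1.02. Adk, adenosine kinase, which makes AMP from adenosine, was at 57.4, 80.7 and 76.1 FPKM in WT control and 106 and 102 in the libraries labelled skmNrip1-/-. For Adk the log2 fold change was 0.55 (unadjusted p = 0.0122, adjusted p = 0.271 from limma), and 0.25 after rescaling to TPM (unadjusted p = 0.255). The groups did not overlap for either gene. Ampd1, the muscle AMP deaminase, was at 390 to 474 FPKM in WT control and 339 and 343 in the other group, and its log2 fold change was -0.30. The highest of the list was Nt5c1a, a cytosolic nucleotidase, at 0.58, with overlapping groups.

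**Figure D5:**
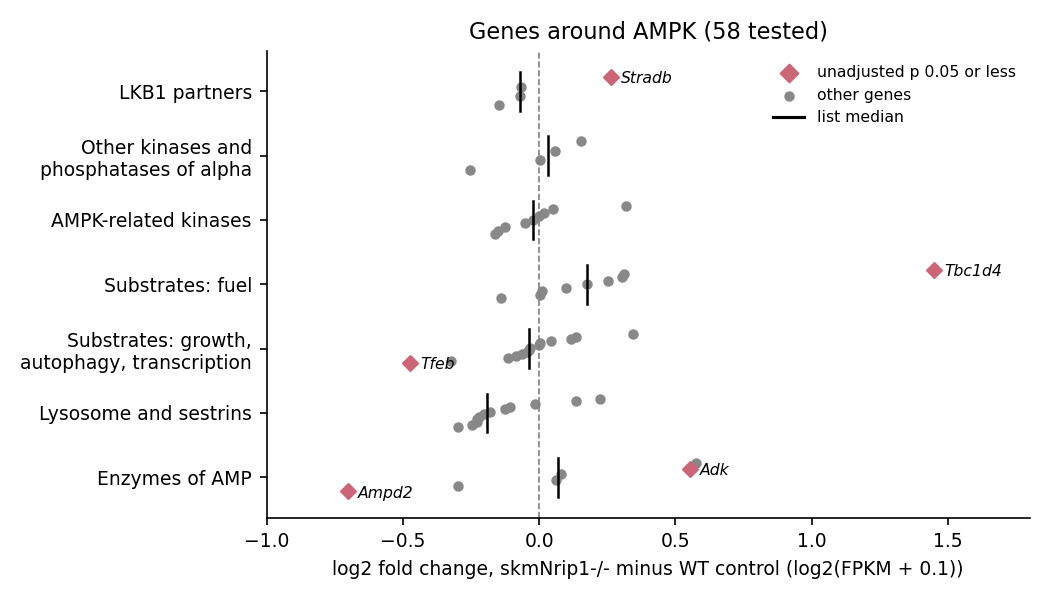
Log2 fold change (skmNrip1-/- minus WT control, log2(FPKM + 0.1)) of the 58 tested genes around AMPK, 1 point per gene, with a line at each list median and diamonds at an unadjusted p of 0.05 or less. Tbc1d4 lies farthest to the right, at 1.45, and Ampd2 farthest to the left, at -0.70.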

How the data were processed

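TA muscle RNA was sequenced in 3 WT control libraries and 2 that carry the label skmNrip1-/-. The study gives n = 3 per group, whereas the samples used here hold 2 labelled skmNrip1-/-. The authors quantified reads with Salmon 1.10.2 on mm10 and tximport, and deposited 1 FPKM value a gene in every library. How FPKM was computed, and the annotation release, are not given in the sources used here. The table also holds log2 fold changes and adjusted p-values of the authors' own comparison, which were not used. Library sums of FPKM were 969144 to 1288038 and the median ratio to the genes' geometric mean was equal in all, so the values carry a scaling. Absolute depth is unknown, and the mode of ratios between low FPKM values of single-transcript genes put relative depth at 0.809 to 1.098 of WT control replicate 1. mtDNA-encoded genes held 45.4% to 50.7% of FPKM in WT control and 58.6% and 60.9% in the other libraries. No 2 libraries shared a nonzero value.

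Because FPKM are not counts, genes were compared with limma 3.58.1 (R 4.3.3; eBayes with trend) on log2(FPKM + 0.1), with a mean of at least 0.5 FPKM (12148 genes) and Benjamini-Hochberg adjustment over all of them. Fold changes on this scale understate changes of low genes. The thresholds follow the study. Named genes were the 8 members, Nrip1, fiber-type markers, the 5 genes nearest to Prkag3, and in each list the largest and smallest change and any gene with an unadjusted p of 0.05 or less. Other listed genes named (Cab39, Cab39l, Tbc1d1, Acacb, Ppargc1a and Ampd1) were chosen after their values were seen. Members and lists were chosen with earlier results of these data known. The fit was tested on simulated data, in which 90 of 104 genes changed by 2 on the log2 scale were called. Of 96 genes changed by 1, 50 were called, so a gene not called may still differ. Of 11948 unchanged genes, 5 were called. Positions are from GENCODE M21 (GRCm38), and promoters from RefSeq (GRCm38.p6). Shares were tested with an exact permutation test in scipy 1.17.1 (Python 3.11.15). Alternatives were other pseudocounts, FPKM minimums, scalings, variance models, call thresholds, a replicate block and leaving out each library.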

Additional observations from a re-analysis of the deposited data

How the results depend on the processing

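Over the 15 alternatives of the fit, Prkag3 stayed below 0, from -1.32 to -0.80. Where each group kept at least 2 libraries, its adjusted p was 0.0485 to 0.485 (limma). Several alternatives could not move its fold change. These were the other FPKM minimums, the other variance models and the median of ratios, which was equal in all libraries. The replicate block gave the same fold change as leaving out WT control replicate 3. Prkag3 was called only after rescaling to TPM, at -1.32. This made the count of members called 1, and the genes called 29 higher and 59 lower. TPM also turned the sign of Prkaa1 (-0.0097), Prkaa2 (-0.18) and Prkag1 (-0.28), and put Prkab1 at -0.42, Prkab2 at -0.47, Prkag2 at -0.69 and Stk11 at -0.44, beside an all-gene median of -0.29. Leaving out 1 library put Prkag1 between -0.0075 (without skmNrip1-/- replicate 1) and 0.036, and without skmNrip1-/- replicate 2 Prkab1 was at 0.018. The same gave 0.17 to 0.39 for Prkaa1, 0.026 to 0.21 for Prkaa2, -0.26 to -0.12 for Prkab2, -0.52 to -0.20 for Prkag2 and -0.22 to -0.064 for Stk11. Leaving out 1 library gave 6 to 51 genes higher and 2 to 15 lower, 0 members called, and 0 to 1 of the genes around AMPK (Tbc1d4). Leaving out 1 library gave a difference in the Prkaa2 share of -1.93 to -0.43 percentage points, in the Prkab2 share of -0.84 to 0.42 and in the Prkag3 share of -19.3 to -11.7. Without the variance trend 22 genes were higher and 3 lower, and a stricter threshold of 0.01 on the adjusted p gave 14 and 3. The replicate block, on the 2 numbers that both groups share, gave 18 genes higher and 4 lower, with Prkag3 at -1.08 (adjusted p = 0.386 from limma), and changed the call of no member. Same-numbered libraries correlated at 0.065 and 0.095 in their deviations from the group means. With 2 libraries labelled skmNrip1-/-, their deviations mirror each other, so this check cannot exclude pairs. The labels do not state pairs, and the numbers were not taken as such. Where 1 library labelled skmNrip1-/- remained, it was assumed to vary like WT control. TPM divides by the library sum of FPKM, which was 969144 to 1144714 in WT control and 1286254 and 1288038 in the other libraries. Rescaling to the sum without mtDNA-encoded genes put the all-gene median at 0.074 and Prkag3 at -0.95 (adjusted p = 0.156, limma). Beyond these divisions, why the values moved was not tested. Depth, and 2 libraries in a group, limit the precision.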
